A study of Mus musculus with 6 samples.

Results

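The miR-30 family of the mouse was read at 6 loci, Mir30a, Mir30b, Mir30c-1, Mir30c-2, Mir30d and Mir30e. They were chosen by their names, though with earlier results of these data known. They are 6 of 2265 features in the small RNA-seq count table of Achilles tendons. Nfyc, the gene that carries Mir30c-1 and Mir30e in its introns, was read beside them as 1 of 54189 features in the RNA-seq count table of the same tendons. The tendons came from mice at 4 weeks of age. Control mice were Dicer f/f, with both floxed Dicer1 alleles and no Cre. ScxHt mice were ScxCre/+ Knock In:Dicer +/+, with Cre but with intact Dicer1 alleles. Dicer cKO mice were ScxCre/+ Knock In:Dicer f/f. Because Cre was knocked into Scx, ScxHt and Dicer cKO mice shared the ScxCre/+ genotype at the Scx locus, which Control mice lacked. Recombination was limited to cells with a history of Scx expression, and cells without it in the whole tissue would keep their Dicer1 alleles. Recombination was not measured here. Each genotype had 1 RNA-seq and 1 small RNA-seq library, made from the same tendon sample, so every difference below is a difference between libraries and no test across mice was possible.

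In animals, a primary miRNA transcript is cut by DROSHA in the nucleus and the resulting hairpin by DICER in the cytoplasm, and 1 strand of the duplex is loaded into an Argonaute protein. The loaded miRNA pairs mainly through its seed, bases 2 to 8, with sites in the 3' UTR of messenger RNAs, and lowers their stability or translation. The miR-30 miRNAs share their seed and are abundant in many differentiated tissues. Snai1, Runx2, Smad1, Ctgf and the autophagy gene Becn1 are among the targets that have been reported for them in other systems. NFYC is a subunit of NF-Y, a trimeric transcription factor that binds CCAAT boxes.

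The 6 loci lie in 3 pairs. On GRCm38, Mir30a (chr1:23272269-23272339, plus strand) and Mir30c-2 (chr1:23291701-23291784, plus strand) are 19361 bases apart. Mir30a overlaps no other annotated gene, and Mir30c-2 lies in an exon of the long non-coding RNA Gm27028. Mir30b (chr15:68337415-68337510, minus strand) lies in an exon of the non-coding RNA Gm26621, and Mir30d (chr15:68341208-68341289, minus strand), 3697 bases away, in exons of the transcripts Gm20732 and Gm37296. Mir30c-1 (chr4:120769534-120769622, minus strand) and Mir30e (chr4:120772606-120772697, minus strand) are 2983 bases apart in introns of Nfyc (chr4:120757438-120831572, minus strand). The mature 5' arms below carry the shared seed and are shown because they decide which reads the loci can be told apart by. RefSeq (GRCm38.p6) gave sequences for 4 of the 6 loci, and the seed is in capitals.
miR-30a-5p: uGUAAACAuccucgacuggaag
miR-30e-5p: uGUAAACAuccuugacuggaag
miR-30c-5p, from both Mir30c-1 and Mir30c-2: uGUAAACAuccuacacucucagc

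The 3' arms are shown because Mir30c-1 and Mir30c-2 can be told apart only there.
miR-30a-3p: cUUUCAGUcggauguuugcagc
miR-30e-3p: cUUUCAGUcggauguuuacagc
miR-30c-1-3p: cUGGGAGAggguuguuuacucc
miR-30c-2-3p: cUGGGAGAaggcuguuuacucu

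Counted from 1 at the 5' end, the 5' arms of Mir30a and Mir30e differ at a single base, C13U. The 5' arm of Mir30c differs from that of Mir30a by C13A, G14C, G18C, G19U and A20C and runs 1 base longer. The 3' arms of Mir30a and Mir30e differ by G18A, and those of Mir30c-1 and Mir30c-2 by G9A, U12C and C22U. The seed GUAAACA is carried by 5 of 1738 mature entries of the table, namely those of the 4 matched loci and miR-384-5p. The 5' arms of Mir30c-1 and Mir30c-2 are identical, so most reads of either can come from the other. In these tables, 41 of 328 small RNA-seq features with more than 50 reads share all 3 of their counts with another feature. How reads that matched several loci were counted is not given in the sources used here.

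As a check of the labels, Dicer1 in RNA-seq had 1919 counts in Control, 2025 in ScxHt and 1621 in Dicer cKO. After division by DESeq2 size factors of the 2 libraries compared, Dicer1 had 0.877 times the Control count in Dicer cKO (0.821 to 0.938 by counting error at 95%). Counts outside the floxed part of the gene do not report the deletion. Small RNA-seq totals were 10986541 (Control), 8437993 (ScxHt) and 8435829 (Dicer cKO), with 579 to 634 features detected, and RNA-seq totals were 14959399 to 16244232. Ratios below were made in the same way as for Dicer1, and their intervals are exact Clopper-Pearson intervals for counting error only, with the size factors taken as known. PCR copies are not independent molecules, so the true uncertainty is wider.

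Every miR-30 locus was detected in each library, and Mir30d was the most abundant. It had 36521 reads in Control, 23797 in ScxHt and 29064 in Dicer cKO, or a CPM (the share of all counts of its library, scaled up) of 3324, 2820 and 3445, and ranked 31, 38 and 35 among all features. Mir30a followed with 16107, 11110 and 14515 reads in the same order of libraries, or 1466, 1317 and 1721 CPM. Both had their lowest CPM in ScxHt.

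Mir30e had 9487 reads in Control, 8656 in ScxHt and 9804 in Dicer cKO, or 864, 1026 and 1162 CPM. Mir30c-2 had 3795, 4111 and 4630 reads, or 345, 487 and 549 CPM. Mir30c-1 stood just under it with 3429, 3901 and 4393 reads, or 312, 462 and 521 CPM. These 3 loci had their lowest CPM in Control and their highest in Dicer cKO. Mir30b was the least abundant, with 712, 624 and 575 reads and 64.8, 74.0 and 68.2 CPM, and the counting intervals of its CPM overlapped among all 3 libraries.

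**Figure D1:**
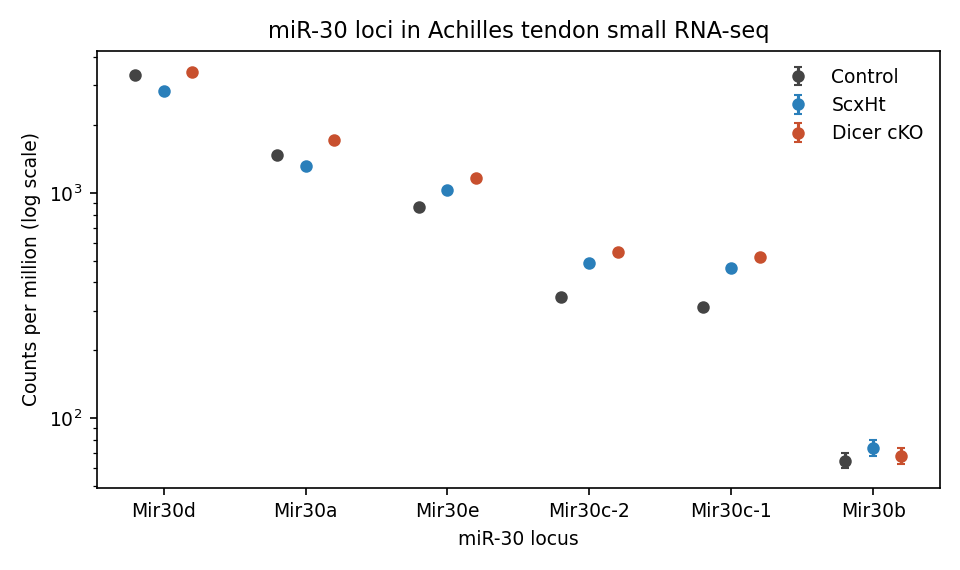
CPM of the 6 miR-30 loci (log axis) in the Control, ScxHt and Dicer cKO small RNA-seq libraries, 1 library per genotype, with 95% intervals for counting error. The order of the loci, from Mir30d with 3324 CPM to Mir30b with 64.8 CPM in Control, is the same in all 3 libraries.

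The order Mir30d, Mir30a, Mir30e, Mir30c-2, Mir30c-1, Mir30b held in each library, and also in the authors' RPKM values, which divide by the length of the feature (in Control 40539 for Mir30d and 675 for Mir30b). Neighbours in this order were separated by more than counting error, but by little for Mir30c-2 and Mir30c-1, whose ratio was 1.11 (1.06 to 1.16) in Control, 1.05 (1.01 to 1.1) in ScxHt and 1.05 (1.01 to 1.1) in Dicer cKO. Since their 5' arms cannot be told apart, the order of these 2 loci is uncertain.

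The 6 loci together held 70051 reads in Control, 52199 in ScxHt and 62981 in Dicer cKO. These were 0.638%, 0.619% and 0.747% of all small RNA-seq counts. Reads of miR-30c-5p may enter these sums at both of its loci. Within the family, Mir30d took 52.1% of the reads in Control (interval 51.8 to 52.5), 45.6% in ScxHt (45.2 to 46.0) and 46.1% in Dicer cKO (45.8 to 46.5). Mir30a kept a share of 23%, 21.3% and 23%. The shares of Mir30e were 13.5%, 16.6% and 15.6%, those of Mir30c-2 5.42%, 7.88% and 7.35%, and those of Mir30c-1 4.90%, 7.47% and 6.98%. Mir30b made up 1.02%, 1.20% and 0.913%. The Control library thus had a larger part of its miR-30 reads at Mir30d, and the 2 ScxCre/+ libraries a larger part at Mir30c-1, Mir30c-2 and Mir30e.

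**Figure D2:**
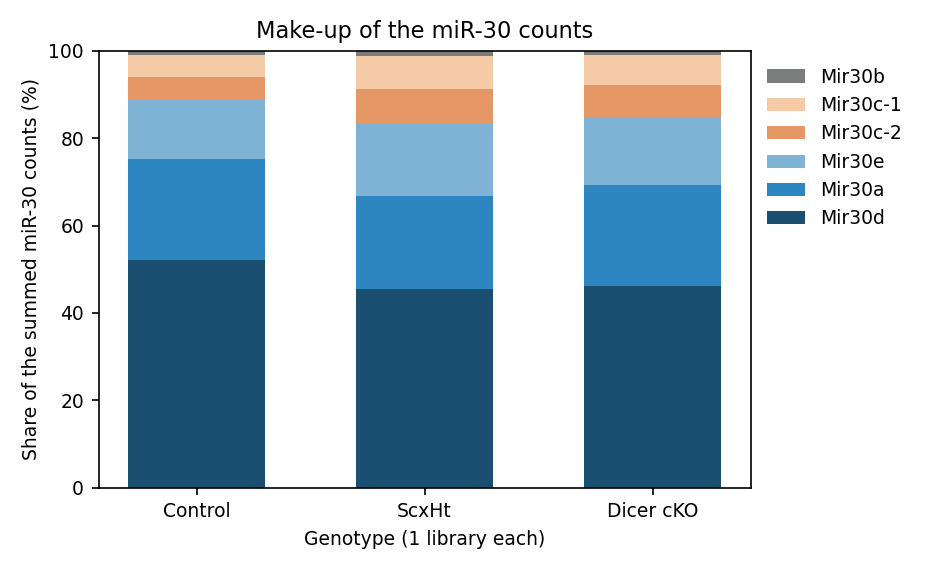
Percent of the reads of the 6 miR-30 loci that each locus held in the Control, ScxHt and Dicer cKO small RNA-seq libraries. Mir30d held 52.1% in Control against 45.6% and 46.1% in ScxHt and Dicer cKO.

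By genomic pair, Mir30b and Mir30d on chromosome 15 held 53.2% of the family's reads in Control, 46.8% in ScxHt and 47.1% in Dicer cKO. Mir30c-1 and Mir30e, the pair inside Nfyc, held 18.4%, 24.1% and 22.5%, and Mir30a with Mir30c-2 on chromosome 1 held 28.4%, 29.2% and 30.4%. Levels of the members of a pair also differed widely. In Control there were 51.3 reads of Mir30d per read of Mir30b (47.6 to 55.3), against 38.1 (35.2 to 41.4) in ScxHt and 50.5 (46.5 to 55.0) in Dicer cKO. Mir30a had 4.24 reads per read of Mir30c-2 in Control (4.10 to 4.40), 2.70 in ScxHt (2.61 to 2.80) and 3.13 in Dicer cKO (3.03 to 3.24). Mir30e had 2.77 reads per read of Mir30c-1 in Control (2.66 to 2.88), 2.22 in ScxHt (2.14 to 2.30) and 2.23 in Dicer cKO (2.15 to 2.31). These ratios are taken inside a library and do not depend on its scaling. Those with Mir30c-1 or Mir30c-2, and the shares of their pairs, depend on how reads of miR-30c-5p were assigned between these 2 loci. Of the 3 pairs, only that of Mir30e and Mir30c-1 had ratios whose intervals overlapped between ScxHt and Dicer cKO while both lay apart from Control.

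**Figure D3:**
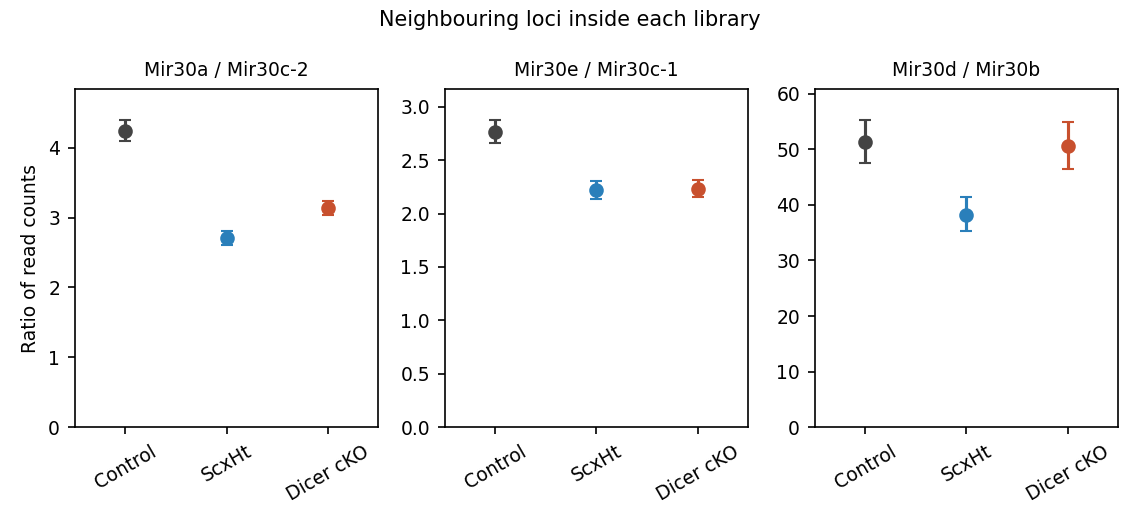
Ratio of read counts of the 2 loci of each genomic pair in the Control, ScxHt and Dicer cKO small RNA-seq libraries, with 95% intervals for counting error. Mir30a per Mir30c-2 was 4.24 in Control, 2.70 in ScxHt and 3.13 in Dicer cKO.

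Dicer cKO/Control addressed whether miR-30 reads were lower, relative to other small RNA-seq features, where Dicer1 was floxed and Cre was present. The size factors come from these features, so a loss shared by most of them would not appear in the ratios. All 6 loci passed the minimum mean normalized count of 15, and none had a ratio below 0.60 or above its reciprocal (rounded to 2 decimals, the upper threshold in what follows), which 12.6% of the 334 features tested had. With a minimum mean of 100, which all 6 loci also passed, that share was 7.66%. Mir30c-1 had the highest ratio, 1.47 (1.40 to 1.54), and Mir30c-2 had 1.40 (1.34 to 1.46). Mir30e was at 1.18 (1.15 to 1.22) and Mir30a at 1.03 (1.01 to 1.06). Mir30b was at 0.926 (0.828 to 1.03). Mir30d was at 0.912 (0.898 to 0.926), a log2 ratio of -0.13 that became 0.05 when the libraries were scaled by their total counts. The median log2 ratio of the 6 loci was 0.15, against -0.02 over all features tested, and their sum had a ratio of 1.03 (1.02 to 1.04). Mir30c-1 and Mir30c-2 may hold the same reads, here and in the count of loci below. With them as 1 locus the median was 0.047. The intervals of 4 of 6 loci lay above 1, barely so for Mir30a, as did 31.1% of all features, and that of 1 locus below 1, as did 31.7%. Intervals are narrower at higher counts, so such shares over all features depend on depth. Mir30d and Mir30a, with ratios near 1, held most of the family's reads. Mir30c-1 and Mir30c-2, with the highest ratios, held few.

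In ScxHt/Control, where both libraries had functional Dicer1 alleles, no locus passed either threshold, against 9.94% of 332 features (3.01% past the upper and 6.93% past the lower). With a minimum mean of 100 the share past either was 3.43%. Mir30d had a ratio of 0.734 (0.722 to 0.746) and Mir30a of 0.777 (0.758 to 0.796). Mir30c-1 was at 1.28 (1.22 to 1.34) and Mir30c-2 at 1.22 (1.17 to 1.28), while the intervals of Mir30e (1.03, 0.998 to 1.06) and Mir30b (0.987, 0.885 to 1.1) held 1. The median log2 ratio was 0.01, beside -0.02 over all features, and the sum was lower at 0.840 (0.830 to 0.849). The intervals of 2 loci lay above 1, as did 24.4% of all features, and those of 2 below 1, as did 32.8%.

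Between the libraries that both carried ScxCre, Dicer cKO/ScxHt, no locus passed a threshold, against 13.4% of 322 features (11.2% past the upper and 2.17% past the lower). With a minimum mean of 100 the share past either was 8.58%. Mir30a had a ratio of 1.31 (1.27 to 1.34) and Mir30d of 1.22 (1.20 to 1.24). Mir30c-1 stood at 1.13 (1.08 to 1.18), Mir30c-2 at 1.13 (1.08 to 1.17) and Mir30e at 1.13 (1.1 to 1.17). Mir30b was at 0.921 (0.821 to 1.03). The median log2 ratio was 0.18 beside -0.01 over all features, and the sum was at 1.21 (1.19 to 1.22). Intervals of 5 of 6 loci were above 1, as were those of 25.8% of all features, and that of none was below 1, as were those of 33.9%. The 3 comparisons share libraries pairwise, so their values are not independent of each other. Scaling by total counts moved the ratios of all small RNA-seq features by 0.18 on the log2 scale in Dicer cKO/Control and by 0.21 in ScxHt/Control, and total counts without features above 1% of a library moved those of Dicer cKO/Control by 0.12.

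**Figure D4:**
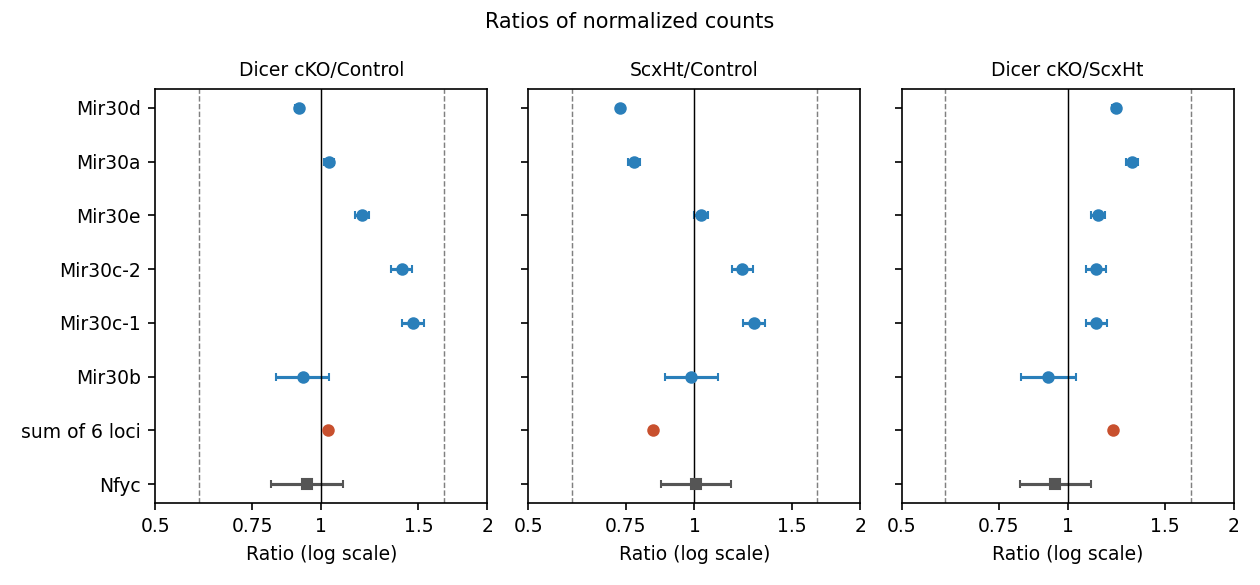
Ratio of normalized counts (log axis) of the 6 miR-30 loci and their sum (small RNA-seq) and of Nfyc (RNA-seq) in the 3 comparisons. Bars are 95% counting intervals, and lines mark the upper threshold and 0.60. No point lies past either line. Mir30d in Dicer cKO/Control is at 0.912 here, a log2 ratio of -0.13 that became 0.05 under scaling by total counts.

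Mir384, whose 5' arm has the same seed, had 5 reads in Control, 1 in ScxHt and 21 in Dicer cKO. Mir30f, which is annotated on the strand opposite to Mir30e and whose mature entry has its seed shifted by 1 base, had 0 reads in all 3 libraries. The limit of 3 reads set for a count of 0 was 0.273 CPM in Control and 0.356 CPM in ScxHt and Dicer cKO. By the counting interval the upper limit for Mir30f was 0.336 CPM in Control and 0.437 CPM in ScxHt and Dicer cKO. Mir384 and Mir30f were far below every miR-30 locus.

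Other miRNA families in the same libraries had different ratios. In Dicer cKO/Control the 12 let-7 loci, which held 35.6% of Control counts, had a median log2 ratio of -0.25 and ratios from 0.658 to 1.08. Mirlet7c-1 and Mirlet7c-2 had 871310 and 883070 counts in Control, and Mirlet7a-1 and Mirlet7a-2 had 355017 and 354409. Such loci may hold the same reads, in the let-7 share and median too. The 4 miR-29 loci, which are known for targeting collagen messenger RNAs, had a median of -0.17, with Mir29a lowest at 0.632 (0.614 to 0.650). The 8 muscle miRNA loci had a median of 0.75, and 4 of them were past the upper threshold, as were 8.38% of all features. These were the pairs Mir1a-1 with Mir1a-2 and Mir133a-1 with Mir133a-2, whose nearly equal counts (174274 and 174314, and 18418 and 18421 in Control) may hold the same reads, and in the summed shares too. Of all features, 4.19% were below 0.60. In ScxHt/Control the medians were 0.01 for let-7, 0.09 for miR-29 and -0.64 for the muscle miRNAs, and in Dicer cKO/ScxHt they were -0.24, -0.34 and 1.31. The miR-30 median lay above those of let-7 and miR-29 in Dicer cKO/Control and Dicer cKO/ScxHt and below that of the muscle miRNAs in both. With Mir30c-1 and Mir30c-2 as 1 locus, the miR-30 median was 0.047 in Dicer cKO/Control and 0.18 in Dicer cKO/ScxHt.

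The 5 miRNA features whose pattern over the 3 libraries was nearest to that of the summed miR-30 loci, among 199 compared, were Mir126a, Mir134, Mir328, Mir676 and Mir351. Mir126a, which lies in the endothelial gene Egfl7, had 181767 normalized reads in Control, 155898 in ScxHt and 190407 in Dicer cKO, beside 63050, 54167 and 66381 for the 6 loci together. Every single miR-30 locus lay farther from the sum than these 5 features. In distance between centred log2 normalized counts, the loci ran from 0.092 (Mir30a) to 0.463 (Mir30c-1). Mir351, the farthest of the 5, was at 0.079. With 3 points, the likeness of the sum to these features is a description of these libraries only.

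Tissue markers moved between the same samples. The 10 skeletal muscle markers, none of them at 0, held 5.47% of RNA-seq counts in Control, 3.06% in ScxHt and 9.48% in Dicer cKO, and the 8 muscle miRNAs held 6.34%, 4.38% and 11.9% of small RNA-seq counts. The 5 endothelial markers, none at 0, held 0.0562%, 0.0410% and 0.0663%. Of the muscle markers, which Ttn dominates with 688745 counts in Control, 7 of 10 had an ScxHt/Control ratio below 1 and all 10 a Dicer cKO/Control ratio above 1, while Myh4, the fast myosin heavy chain gene, was at 4.70 in ScxHt/Control. Of the endothelial markers, 5 of 5 were below 1 in ScxHt/Control and 4 of 5 above 1 in Dicer cKO/Control. By share of counts, both lists had the order ScxHt, Control, Dicer cKO. As CPM, the summed miR-30 loci, Mir30a and Mir30d had this order too, while Mir30e, Mir30c-1, Mir30c-2 and Mir30b did not. With size factors over all 3 libraries, Mir30d was highest in Control, at 32871 against 24694 in ScxHt and 30633 in Dicer cKO. The 7 tendon markers, none at 0, held 13.1%, 11.3% and 7.54%, most of it from the collagen genes Col1a1 and Col1a2. All 7 had a Dicer cKO/Control ratio below 1, whereas in ScxHt/Control 4 were above 1 (Tnmd highest at 1.40) and 3 below (Scx lowest at 0.623). According to the paper the Cre knock-in can inactivate endogenous Scx, so Scx counts in ScxHt and Dicer cKO need not follow the tissue. The 5 Schwann cell markers, none at 0, held 0.0223%, 0.0295% and 0.0664%, and of the 4 with enough counts all were above 1 in Dicer cKO/Control and 2 in ScxHt/Control. The lists of 5 adipocyte, 5 macrophage and 5 erythroid markers, none at 0, held 0.0605%, 0.0796% and 0.0668%, 0.0205%, 0.0384% and 0.0164%, and 0.0189%, 0.0194% and 0.0461%. The part of these tissues in the miR-30 values was not tested. In whole tendon, fewer cells of a type and less RNA per cell cannot be told apart.

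Nfyc, the host of Mir30c-1 and Mir30e, had 372 counts in Control, 391 in ScxHt and 337 in Dicer cKO, or 7.77, 8.42 and 7.65 RPKM by the authors. Its ratio was 0.941 (0.809 to 1.09) in Dicer cKO/Control, 1.01 (0.871 to 1.16) in ScxHt/Control and 0.95 (0.819 to 1.1) in Dicer cKO/ScxHt, and each interval held 1. Over the same pairs of samples, Mir30c-1 had ratios of 1.47, 1.28 and 1.13 and Mir30e of 1.18, 1.03 and 1.13. In Dicer cKO/Control the intervals of Mir30c-1 and Mir30e lay above that of Nfyc. Reads of Mir30c-1 may come from Mir30c-2 on chromosome 1, whose 5' arm is identical, so the ratio of Mir30c-1 is not particular to Nfyc. The 2 assays were scaled separately, so a host and an intronic locus are set side by side only as ratios.

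The other NF-Y subunits were read alongside. Nfyb, which forms the histone-fold dimer with NFYC, had 488, 506 and 493 counts, with ratios of 1.05 in Dicer cKO/Control and 0.993 in ScxHt/Control. Nfya, the subunit that contacts the CCAAT box, had 204 counts in Control, 318 in ScxHt and 209 in Dicer cKO. Its ratio was 1.49 (1.25 to 1.79) in ScxHt/Control and 1.06 (0.873 to 1.30) in Dicer cKO/Control, and none of the 3 subunits passed a threshold in any comparison, as 8.06% of all genes did in Dicer cKO/Control, 7.74% in ScxHt/Control and 13.4% in Dicer cKO/ScxHt. The longest 3' UTR of Nfyc holds no match to the miR-30 seed, and those of Nfya and Nfyb each hold a 7-base match.

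Coding genes flanking the other pairs had counts of the same order in the 3 libraries. Ogfrl1, beyond Mir30c-2, had 151 counts in Control, 172 in ScxHt and 158 in Dicer cKO. Zfat and Khdrbs3, on either side of the Mir30b and Mir30d pair, had 222, 197 and 221 and 212, 258 and 169 counts. The RNA-seq table also lists the miR-30 loci themselves. There Mir30c-2 had 20, 29 and 36 counts, Mir30b 5, 2 and 11, and the other 4 loci at most 4, so they were under the minimum mean of 50 and no ratio is given.

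The proteins that make and load miRNAs were described as a list of 10 genes. Its median log2 ratio was -0.05 in Dicer cKO/Control, 0.10 in ScxHt/Control and -0.16 in Dicer cKO/ScxHt. In Dicer cKO/Control none passed a threshold, which 8.06% of all genes did, and the values ran from 0.651 (0.582 to 0.727) for the Argonaute gene Ago1 to 1.38 (1.04 to 1.84) for Prkra, a double-stranded RNA binding partner of DICER. Prkra was also the single gene of the list above the upper threshold elsewhere, at 1.71 (1.32 to 2.24) in ScxHt/Control, where 3.03% of all genes were above it. Drosha, the nuclear nuclease, had 881, 1043 and 863 counts and a Dicer cKO/Control ratio of 1.02 (0.925 to 1.12).

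Of 22 genes reported as miR-30 targets in other systems, 20 passed the minimum mean of 50 in Dicer cKO/Control. Their median log2 ratio was -0.08, against -0.03 over all 13404 genes tested. None was above the upper threshold, as were 3.87% of all genes, and 4 were below 0.60, as were 4.19%. The intervals of 2 lay above 1 and those of 8 below 1, beside 21.6% and 28.5% of all genes. Socs3, an inhibitor of cytokine signalling, had 588 counts in Control, 242 in ScxHt and 130 in Dicer cKO, with a ratio of 0.230 (0.188 to 0.278). Lox, the enzyme that cross-links collagen and elastin, had 19679, 21890 and 10378 counts and a ratio of 0.548 (0.535 to 0.561). Nt5e, the ectonucleotidase CD73, had 750, 1054 and 399 counts and a ratio of 0.552 (0.488 to 0.625).

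Ctgf, a secreted matrix protein gene, had 25891, 30244 and 14955 counts and a ratio of 0.60 (0.588 to 0.612), just under the threshold, and under each of 4 other scalings it was above it, at 0.606 to 0.627, so that 3 targets were below 0.60. The lower counts of Lox, Nt5e and Ctgf were in Dicer cKO alone, where the tendon markers were lowest too, and the part of the tendon cells in these counts was not tested. The highest ratios belonged to Ccne2 (cyclin E2), with 101, 185 and 147 counts and 1.51 (1.17 to 1.97), and to Eed, a subunit of Polycomb repressive complex 2, with 224, 255 and 298 counts and 1.38 (1.16 to 1.65). Of targets named often for this family, Becn1 was at 0.899 (0.823 to 0.982), Runx2, the osteoblast transcription factor, at 1.09 (0.822 to 1.45), and Smad1, which transmits BMP signals, at 0.946 (0.841 to 1.06).

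In ScxHt/Control, 21 of the targets were tested and their median log2 ratio was 0.12, against 0.02 over all genes. Snai1, a repressor of epithelial genes, had 29 counts in Control, 123 in ScxHt and 36 in Dicer cKO and a ratio of 4.06 (2.69 to 6.32), and Ccne2 had 1.75 (1.37 to 2.26). These 2 were past the upper threshold, as were 3.03% of all genes. Below 0.60, as were 4.71%, were Socs3 at 0.394 (0.338 to 0.459) and Dll4, a Notch ligand of endothelium, at 0.582 (0.447 to 0.755). The intervals of 11 targets lay above 1 and those of 7 below, beside 26.4% and 23.8% of all genes. In Dicer cKO/ScxHt the median was -0.19 beside -0.03, 1 target was past the upper threshold (Dll4, 1.68, against 7.68% of all genes) and 5 were below 0.60 (Snai1 0.323, Nt5e 0.417, Lox 0.522, Ctgf 0.545 and Socs3 0.592, against 5.68%). Intervals of 3 targets were above 1 and of 12 below, beside 24.9% and 30.6% of all genes. Under scaling by total counts Dll4 passed neither threshold, with 0.626 in ScxHt/Control and 1.60 in Dicer cKO/ScxHt. This scaling moved all RNA-seq ratios of ScxHt/Control by 0.11 on the log2 scale and put 6 targets below 0.60 in Dicer cKO/ScxHt. Under total counts without features above 1%, Dll4 in Dicer cKO/ScxHt was at 1.65, short of the upper threshold.

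A perfect site was taken as the 8mer TGTTTACA, the match to seed bases 2 to 8 followed by A, in the longest 3' UTR of a gene, on its coding strand. Of 21020 3' UTRs, 6.78% held at least 1 such 8mer. A further 7.0% of the 21020 held TGTTTAC, the 7mer-m8, as their best match and 4.63% held GTTTACA, the 7mer-A1. Both 7mers are contained in the 8mer. Among the 21 reported targets whose symbol was found in the annotation, 17 held an 8mer. The sites of 4 genes with ratios described above are shown with the 8mer in capitals, on GRCm38, with the coordinates of the 8mer.
Socs3, chr11:117966285-117966292, minus strand: gttttgaataaTGTTTACAatttgcctcaa
Nt5e, chr9:88370635-88370642, plus strand: caaacaattgaTGTTTACAtacaacttcat
Ccne2, chr4:11203348-11203355, plus strand: aaaagagaactTGTTTACAaaggtgacttc
Snai1, chr2:167542713-167542720, plus strand: cgggagaaagaTGTTTACAttttaaaggta

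Socs3 and Nt5e had Dicer cKO/Control ratios below 0.60 and Ccne2 the highest of the list. As 17 of the 21 targets searched held an 8mer, genes with it were likely to stand at both ends whatever the ratios. A match is a description of letters and not a measured site.

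Of 10956 tested genes with a 3' UTR, 1006 held an 8mer, and their median log2 ratio was -0.06, against -0.04 for all 10956 and -0.03 for the 8424 genes with none of the 3 motifs. Past the upper threshold were 2.58% of the 8mer genes and 3.79% of all 10956, and below 0.60 were 3.68% and 3.76%. A ratio above 1 was found for 40.0% of the 8mer genes, 45.3% of all and 46.2% of those with no motif. In ScxHt/Control the 8mer genes had a median of 0.00 beside 0.02, and in Dicer cKO/ScxHt -0.06 beside -0.04. Genes with an 8mer also had longer 3' UTRs (median 2594.5 against 1312 bases) and higher normalized counts (median 550.2 against 377.3).

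**Figure D5:**
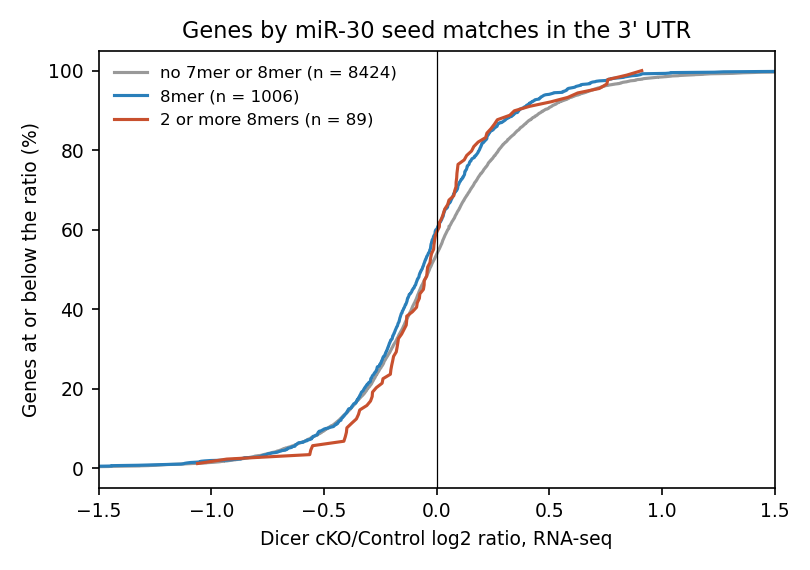
Cumulative percent of tested genes by Dicer cKO/Control log2 ratio in RNA-seq, for genes with an 8mer to the miR-30 seed in the longest 3' UTR, for the 89 of them with 2 or more, and for genes with none of the 3 motifs. The medians were -0.06 for the 1006 genes with an 8mer and -0.03 for the 8424 with no motif.

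The 89 tested genes with 2 or more 8mers had a median log2 ratio of -0.04 in Dicer cKO/Control, with 4.49% past the upper threshold and 2.25% below 0.60, beside 3.79% and 3.76% of all genes with a 3' UTR. The 10 with the highest counts were Nfat5, Trip12, Picalm, Taok1, Sh3pxd2a, Brwd1, Limch1, Rora, Lpp and Ubn2. None of them passed a threshold in Dicer cKO/Control. Limch1, an actin-associated protein gene, had 3323 counts in Control, 2469 in ScxHt and 4938 in Dicer cKO and the highest ratio, 1.54 (1.48 to 1.61). In Dicer cKO/ScxHt it was past the upper threshold, at 2.20 (2.10 to 2.31). Its order of libraries was that of the summed shares of the skeletal muscle markers and of the endothelial markers. The part of these tissues in its counts was not tested. Rora, a nuclear receptor gene, had 4520, 5113 and 3286 counts and the lowest ratio, 0.755 (0.722 to 0.790). Nfat5, the transcription factor of the osmotic stress response, was at 0.820 (0.794 to 0.847) and Trip12, a ubiquitin ligase gene, at 0.984.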

How the data were processed

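RNA-seq and small RNA-seq were done on 1 Achilles tendon sample per genotype. The authors trimmed adaptors, aligned the rest to GRCm38 (TopHat, Bowtie2) and counted reads per gene (HTSeq). They deposited raw read counts, used for all ratios, and RPKM values, used only to order levels. Versions, annotation release and strand setting are not given in the sources used here. Strand and the treatment of reads with several matches therefore remain limits for overlapping and identical loci. A total of 463 repeated RNA-seq lines were dropped, and 0 columns of values were unmapped.

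Counts were divided by DESeq2 1.42.0 (R 4.3.3) size factors of the 2 libraries compared. A mean normalized count above 50 (RNA-seq) or 15 (small RNA-seq) was required, and thresholds, 0.60 and its reciprocal to 2 decimals, followed the study. Its shrinkage of fold changes was not applied, since 1 library gives no dispersion. Ratios and Clopper-Pearson 95% intervals were computed in Python 3.11.15 with scipy 1.17.1. A count of 0 was given a limit of 3 reads. The procedure was tested on simulated data. The intervals leave out the error of the size factors, so an interval that ends near 1 separates nothing. That of Mir30d in Dicer cKO/Control ended at 0.926, and its log2 ratio changed sign under scaling by total counts.

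Longest 3' UTRs came from GENCODE on GRCm38, where 81.7% of tested genes were matched by symbol. Named were the loci, Nfyc, examples of each list (highest, lowest and those past a threshold), up to 10 genes with several 8mers, and the 5 nearest miRNA features. Becn1, Runx2, Smad1, Drosha and the genes flanking the loci were named beside these, with earlier values known. The members, the lists and the markers were chosen with earlier results of these data known. Also tried were scaling by TMM (edgeR 4.0.16), by total counts and by total counts without features above 1%, DESeq2 size factors over all 3 libraries, a pseudocount of 1, other minimum counts, and Mir30c-1 with Mir30c-2 as 1 locus.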

Additional observations from a re-analysis of the deposited data

How the results depend on the processing

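No paired analysis was possible because each genotype had 1 library per assay, and for the same reason no library could be left out. The family's median log2 ratio in Dicer cKO/Control, 0.15 as reported, was 0.20 with TMM, 0.33 with total counts, 0.27 with total counts without features above 1%, 0.047 with Mir30c-1 and Mir30c-2 as 1 locus, and 0.043 for the sum of the 6 loci. In ScxHt/Control, 0.01 as reported, it was 0.22 with total counts and -0.25 for the sum. In Dicer cKO/ScxHt, 0.18 as reported, the sum gave 0.27. The sum weights loci by their reads, and Mir30d and Mir30a held most of these. Mir30d in Dicer cKO/Control changed sign with total counts, from -0.13 to 0.052. Mir30b there, whose interval held 1, went from -0.11 to 0.07. The other alternatives left each family median between the medians of the lower and of the upper counting limits of the 6 loci. Those medians of limits are not an interval for the family median. All alternatives left the Nfyc ratios within their counting intervals. The median of the 8mer genes, which moves with the scaling of all genes, ran from -0.08 to 0.00 in Dicer cKO/Control, from -0.01 to 0.11 in ScxHt/Control and from -0.13 to -0.05 in Dicer cKO/ScxHt. The scalings of single reported targets were added after seeing the data. With 1 mouse per genotype, differences between mice, in dissection or in library preparation cannot be told apart from genotype, whatever the depth.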
